A study of Mus musculus with 16 samples.

Results

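The nuclear-encoded subunits of oxidative phosphorylation were followed across the cell types and treatments of a mouse lung single-cell RNA-seq study. They were picked by a rule on gene names, which was set with earlier results of these data known. The rule took names that begin with Nduf followed by a, b, c, s or v and a number. Also taken were names beginning with Uqcr, Atp5, or Cox and a number of 4 to 8, and Sdha, Sdhb, Sdhc and Sdhd. Names carrying -ps were left out, which removed 8. The rule gave 89 of 38003 genes, of which 38 belong to complex I, 4 to complex II, 8 to complex III, 21 to complex IV and 18 to complex V. All 89 had at least 1 count, and of the 88 found in the RefSeq annotation 85 were protein-coding and 3 were annotated as pseudogenes.

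Live cells were sorted from dissociated whole lungs and barcoded by split-pool indexing. There were 3 samples each of mice given 6-OHDA, BIBO3304 or vehicle without cancer cells. There were also 2 samples each of 6-OHDA-PDAC, BIBO3304-PDAC and vehicle-PDAC, in which pancreatic ductal adenocarcinoma (PDAC) cells had been seeded. 6-OHDA is a toxin taken up by sympathetic nerve terminals, which it destroys, and BIBO3304 blocks the neuropeptide Y receptor NPY1R. The labels used here state no strain, age, dose or length of treatment and do not say whether numbered samples are separate mice, so every p-value refers to the spread among these samples, which may be technical. The treatments act on the whole animal, so a lung cell type is not their only possible target.

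Oxidative phosphorylation takes place at the inner membrane of the mitochondrion. Complex I passes electrons from NADH, and complex II from succinate, to ubiquinone, complex III passes them on to cytochrome c, and complex IV hands them to oxygen. Complexes I, III and IV pump protons as they do so, and complex V, the ATP synthase, makes ATP from the returning protons. Complexes I, III, IV and V also hold subunits encoded in mitochondrial DNA, while all subunits of complex II are nuclear. In the lung, alveolar type 2 cells, which make surfactant, and ciliated airway cells, which beat, are known for their many mitochondria.

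The table held 80449 cells of 22 annotated types, with 10003796 to 32580698 transcripts per sample and no cell name shared between samples. The median number of transcripts per cell ran from 1623 in BIBO3304-PDAC sample 2 to 4846.5 in BIBO3304 sample 2. These same libraries stood at the ends of the measurements described here: BIBO3304-PDAC 2 had the highest member share in 19 of 19 cell types tested, and BIBO3304 2 the lowest in 17 of 19, with BIBO3304 3 lowest in the other two. Vehicle-PDAC sample 2 held 0 cancer cells of 9157, which allows a share of up to 0.0328%, although its label says that cancer cells were seeded. Results that rest on these 3 libraries are given with and without them. The annotated types were checked against marker genes: every marker of smooth muscle (5 of 5), pericytes (6 of 6), alveolar macrophages (9 of 9), ciliated cells (5 of 5), alveolar type 2 cells (5 of 5) and mesothelium (4 of 4) was highest in its own type. Of 5 epithelial cancer markers only 2 were highest in the cells annotated as cancer, and Krt19, Epcam and Muc1 were higher in another type.

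Cells annotated as cancer and ciliated cells devoted the largest shares of their transcripts to the 89 genes, and neutrophils the smallest. The share was the summed count of the members over all transcripts of a sample's cells of a type, in percent, for samples with at least 20 such cells. In cancer cells it had a median of 0.378% over 5 samples (lowest 0.309%, highest 0.546%). Ciliated cells followed at 0.282% (0.167% to 0.443%, 15 samples). Smooth muscle cells and pericytes, annotated together, had 0.275% (0.134% to 0.527%). These ranges overlapped widely, and much of their width came from the sample rather than the type.

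Alveolar macrophages, which clear surfactant and particles from the airspace, had a median of 0.264% (0.153% to 0.363%, 15 samples). Alveolar type 2 cells had 0.250% (0.142% to 0.448%). Below them lay club cells at 0.219% in only 2 samples and mesothelial cells at 0.218% in 14 samples. The 14 types from natural killer cells (0.199%) down to peribronchial fibroblasts (0.163%) formed a continuous run. Neutrophils, which rely largely on glycolysis, closed the order at 0.142% (0.0629% to 0.298%).

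Within samples the order was more uniform than these ranges show. Cancer cells had the highest share in 5 of the 5 samples that held enough of them, with a median of 1.86 times the level of the middle type of the same sample. Ciliated cells were among the top 4 types in 13 of 15 samples, smooth muscle and pericytes in 12, alveolar macrophages in 12 and alveolar type 2 cells in 11. Neutrophils were lowest in 11 of 15 samples, at a median of 0.721 times the middle type. Neighbours among the upper types could not be told apart in this way: ciliated cells exceeded smooth muscle cells and pericytes in 11 of 15 samples, smooth muscle cells and pericytes exceeded alveolar macrophages in 9, and alveolar macrophages exceeded alveolar type 2 cells in 8. Neutrophils lay below peribronchial fibroblasts in 13 of 15.

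**Figure D1:**
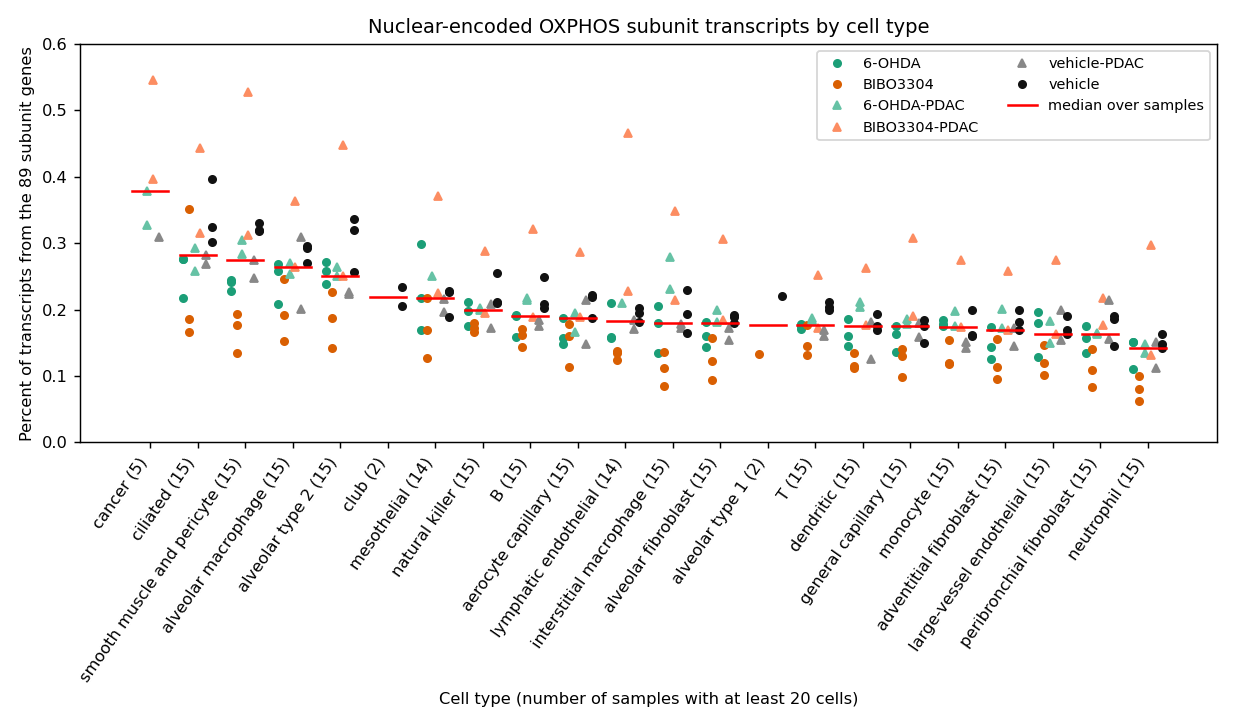
Percent of transcripts from the 89 subunit genes (vertical axis) in each cell type (horizontal axis, with the number of samples); each point is 1 sample, coloured by group, and red bars are medians over samples. Cancer cells (median 0.378%) lie at the left and neutrophils (0.142%) at the right, and the BIBO3304-PDAC triangles that top most types belong to sample 2.

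Cell depth differed between types along with these shares. The median cancer cell held 10851 to 25665.5 transcripts depending on the sample, and the median neutrophil 848 to 2307.5, so the part of depth in their difference was not tested. Among cells of 1000 to 3000 transcripts, a range chosen after seeing the data that left no sample with 20 cancer cells, the median share was 0.387% in ciliated cells, 0.354% in alveolar macrophages, 0.308% in alveolar type 2 cells and 0.296% in smooth muscle and pericytes. Neutrophils were again lowest of the 19 types there, at 0.131%.

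For complexes I, III, IV and V, taken one at a time, cancer cells had the highest median share of all types and neutrophils the lowest. The cancer medians cover only 5 samples, all seeded, and those of most other types 15, so the sets of samples differ. The next type was ciliated cells for complex III (0.0280%) and smooth muscle and pericytes for complex I (0.0878%). The order by complex was not compared within samples. In cancer cells the median share was 0.0987% for complex I, 0.0111% for complex II, 0.0303% for complex III, 0.101% for complex IV and 0.124% for complex V. In neutrophils it was 0.0392%, 0.00806%, 0.0138%, 0.0374% and 0.0397% for the same complexes in turn. Complex II, which is also an enzyme of the citric acid cycle, differed least between these types and had another order. Its median was highest in alveolar macrophages (0.0116%), B cells (0.0114%) and natural killer cells (0.0113%), and it was lower than in neutrophils in smooth muscle and pericytes (0.00805%), mesothelium (0.00691%) and club cells (0.00416%), among others.

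Individual members departed from the common order. Among members with a level of at least 50 CPM (counts in 1000000 transcripts) in some type, the ratio of the highest to the lowest type mean was largest for Ndufc2, a membrane-arm subunit of complex I, at 15.6. Ndufc2 averaged 57.6 ± 26.4 CPM in ciliated cells and 3.69 ± 4.98 CPM in neutrophils (SD, n = 15 each). Ndufs4, an accessory subunit whose loss causes Leigh syndrome in humans, was highest in lymphocytes, at 131 ± 40.0 CPM in natural killer cells and 113 CPM in T cells. Its level in neutrophils was 31.1 ± 16.5 CPM.

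In complex IV, Cox5a, a matrix-side subunit, averaged 149 ± 61.2 CPM in cancer cells (n = 5), 117 CPM in alveolar macrophages and 34.4 ± 17.6 CPM in peribronchial fibroblasts. Cox5b, a zinc-binding subunit, had 65.8 ± 10.8 CPM in cancer cells and 15.5 ± 14.7 CPM in peribronchial fibroblasts. Ndufa4, first assigned to complex I and later to complex IV, had 82.1 ± 27.5 CPM in cancer cells and 13.5 ± 11.9 CPM in neutrophils. Means for cancer cells cover only the 5 samples that held them, and in those samples Ndufa4 averaged 86.0 CPM in smooth muscle and pericytes, above cancer cells. Cox5a and Cox5b were lowest in peribronchial fibroblasts.

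In complex V, Atp5b, the catalytic beta subunit of the ATP synthase, averaged 328 ± 62.8 CPM in cancer cells, with 262 to 405 CPM in the 5 samples, 147 CPM in ciliated cells and 52.7 ± 31.9 CPM in neutrophils. Atp5j2, a subunit of the membrane part, had 56.2 ± 24.8 CPM in cancer cells and 11.3 ± 8.59 CPM in neutrophils, but in the 5 samples with cancer cells it averaged 56.6 CPM in lymphatic endothelium, level with cancer cells. Atp5g3, one of the genes for the proton-carrying c subunit, had 96.1 ± 31.4 CPM in cancer cells and 23.4 ± 24.8 CPM in neutrophils.

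In the 5 samples with cancer cells, 21 of the 89 members had their highest mean in those cells. The share of all genes highest there is not given here, so this count has no reference. The 21 include Cox8c, which had 1 count in all. Cox7a2l, which takes part in joining complexes III and IV into supercomplexes, averaged 154 ± 41.7 CPM there against 73.8 CPM in lymphatic endothelium, the next type in these samples. Cox7a2l, Atp5b and Cox5b had their highest level in cancer cells in 5 of 5 samples, and Atp5a1, the alpha subunit of the ATP synthase, in 4 of 5 (208 ± 16 CPM in cancer cells, 145 CPM in smooth muscle and pericytes). The other members highest there did so in 0 to 3 of the 5 samples.

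Several subunits exist as paralogue pairs with one broad and one restricted form. Cox4i1, the broad form of the largest nuclear subunit of complex IV, was at 89.7 ± 40.0 CPM or more in every type, with 206 ± 95.7 CPM in smooth muscle and pericytes. Cox4i2, its oxygen-sensitive paralogue known from lung smooth muscle and pericytes, averaged 24.6 ± 18.7 CPM in smooth muscle and pericytes and 3.91 CPM in peribronchial fibroblasts, and its mean was below 2 CPM in every other type. Smooth muscle and pericytes held 0.469% of all transcripts and 34 of the 151 Cox4i2 counts (22.5%). Its counts there were 0, 3 and 3 in 6-OHDA samples, 1, 3 and 5 in BIBO3304 samples, 0 and 0 in 6-OHDA-PDAC, 2 and 1 in BIBO3304-PDAC, 3 and 6 in vehicle-PDAC, and 4, 0 and 3 in vehicle samples. At this depth no difference between treatments could be read from them, and 4 of 15 samples were at 0.

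Ndufa4l2, a hypoxia-induced paralogue of Ndufa4, had 56 of its 87 counts (64.4%) in adventitial fibroblasts, at 3.53 ± 1.90 CPM with a count in every sample. In smooth muscle and pericytes it averaged 8.86 ± 13.5 CPM from 12 counts, and 8 of 15 samples were at 0. Cox6a2, the heart and skeletal muscle form of subunit VIa, had 125 of its 175 counts (71.4%) in alveolar type 2 cells, which held 6.17% of all transcripts. It was found there in every sample, at 2.85 to 14.6 CPM with a median of 7.19 CPM, and in dendritic cells it averaged 3.94 CPM.

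Alveolar fibroblasts held 96 of the 113 counts of Cox8b (85.0%) and 42 of the 73 counts of Cox7b2 (57.5%), against 19.8% of all transcripts. Cox8b is another form otherwise known from muscle. Cox6b2, known as a testis form, was also highest in alveolar fibroblasts, at 10.6 ± 2.78 CPM, with 10.1 ± 15.9 CPM in mesothelium. Cox8c had 1 count in all. Cox7a1, the muscle partner of Cox7a2, had no type mean above 2.22 CPM.

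**Figure D2:**
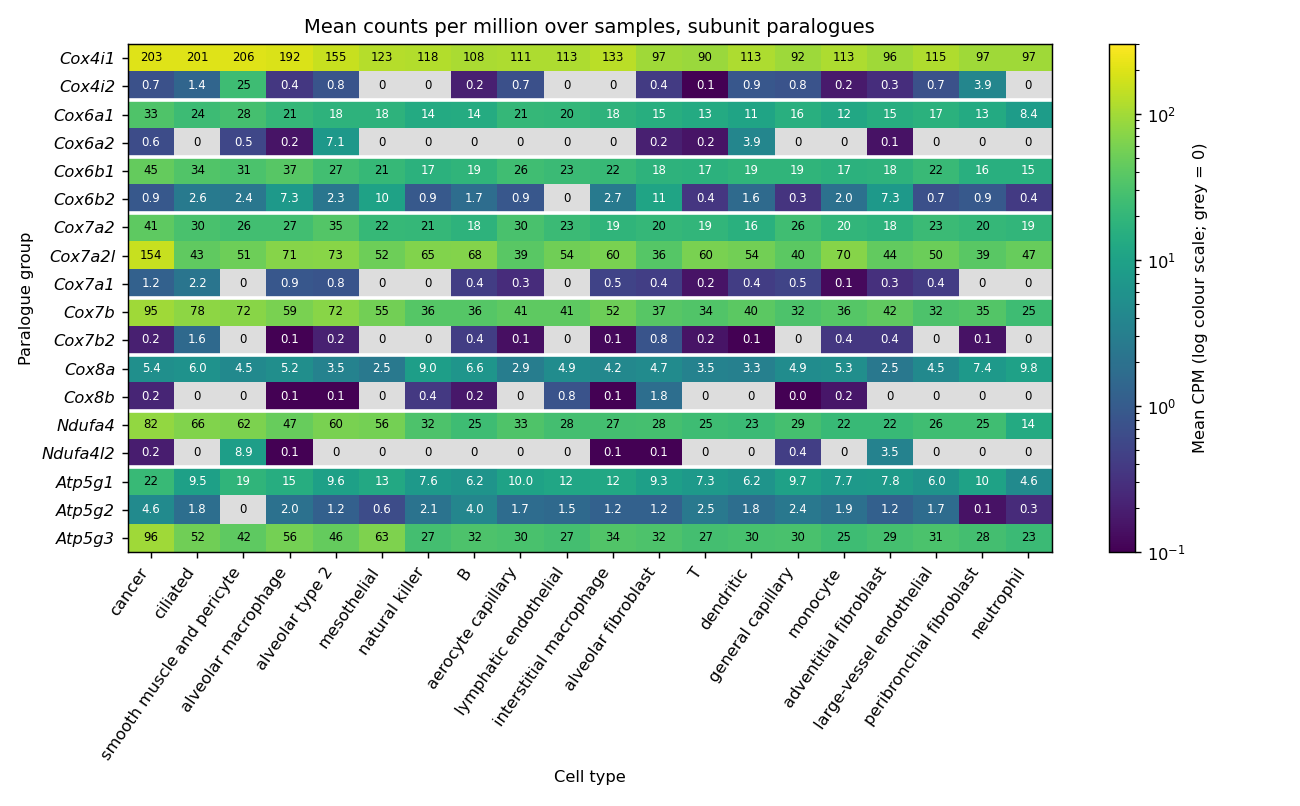
Mean CPM over samples (colour, log scale, and number in each cell) of paralogous subunits (vertical axis, grouped by white lines) in 20 cell types (horizontal axis); grey marks 0. Cox4i2 stands out in smooth muscle and pericytes (24.6), Cox6a2 in alveolar type 2 cells (7.10) and Ndufa4l2 in smooth muscle and pericytes and adventitial fibroblasts (8.86 and 3.53).

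For the treatment comparisons, each sample's counts were added up within a cell type and tested with edgeR's quasi-likelihood test over all genes of a type. A call is an adjusted p under 0.05. Of the 89 members 81 passed the expression filter in at least 1 of 19 types and 8 in none (Cox4i2, Cox6a2, Ndufa4l2, Cox8c, Cox7b2, Cox6c2, Ndufa11b and Ndufs6b). Between 6 and 80 members were tested per type, and 5 in all 19 types, which gave 773 tests. In such sums, fewer cells holding a transcript and less of it per cell cannot be told apart. The 6-OHDA and BIBO3304 comparisons share their vehicle samples, and those with PDAC cells share their vehicle-PDAC samples, so comparisons within each set are not independent of each other. The types within a comparison also come from the same samples, so a shift of 1 library can move all of them. Counts of types below or above 0 are therefore not independent repeats.

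BIBO3304 without cancer cells was the only one of the 5 comparisons of 1 group with another in which edgeR called members. Members were lower in BIBO3304 than in vehicle samples in 13 tests and higher in 0, while 0.307% of all 113537 tests in this comparison passed in either direction and 0.227% in the lower direction. An unadjusted p under 0.05 was reached by 269 member tests (34.8%), against 12.9% of all tests, and DESeq2 called 32. The median log2 fold change of all genes, which the scaling between samples (TMM) keeps near 0 in any comparison, was 0.0033. That of the members was below 0 in 19 of 19 types, with a median over types of −0.67. It was lowest in smooth muscle and pericytes (−1.06), neutrophils (−0.96) and natural killer cells (−0.84), and nearest 0 in alveolar macrophages (−0.48), alveolar fibroblasts (−0.51) and adventitial fibroblasts (−0.52). Only 6 members were tested in smooth muscle and pericytes and 6 in neutrophils, against 80 in alveolar macrophages.

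Library shares went the same way with gaps of unequal size. Over all cells, members made up 0.185%, 0.121% and 0.149% of transcripts in the 3 BIBO3304 samples, against 0.244%, 0.232% and 0.247% in the 3 vehicle samples. Every BIBO3304 sample was below every vehicle sample in 17 of 19 types. Without BIBO3304 sample 2, the median over types was −0.48 and below 0 in 19 of 19 types, but 0 members were called. Without vehicle 1 or vehicle 2 there were also 0 calls, and without vehicle 3 there was 1.

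**Figure D3:**
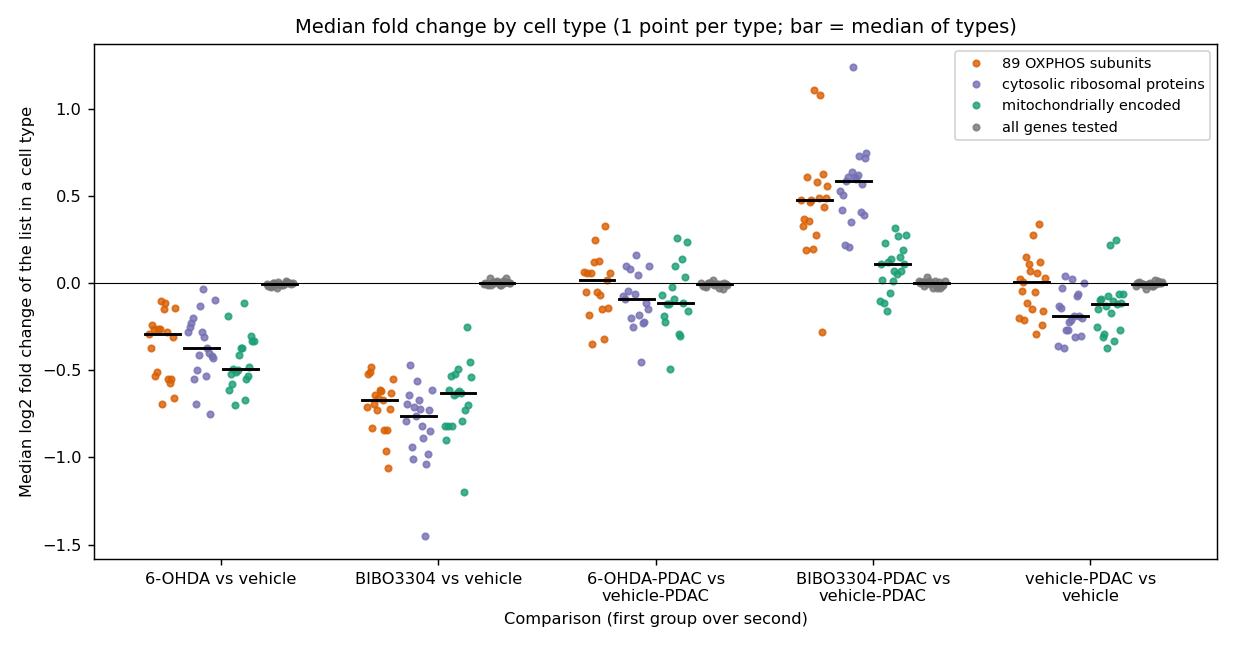
Median log2 fold change of a gene list in each cell type (vertical axis, 1 point per type, bars at the median of types) for 5 comparisons (horizontal axis, first group over second). The 89 subunits centre on −0.67 for BIBO3304 over vehicle and 0.48 for BIBO3304-PDAC over vehicle-PDAC, with the ribosomal protein genes beside them. All genes tested stay near 0, where the scaling between samples keeps them.

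Alveolar type 2 cells held 9 of the 13 calls, in a type where 1.41% of all genes passed in the lower direction. Cox6c, a small membrane subunit of complex IV, had 71.9, 35.5 and 98.8 CPM in BIBO3304 samples against 160, 169 and 168 CPM in vehicle samples. The groups did not overlap, and BIBO3304 2 was lowest. The log2 fold change of Cox6c was −1.28 (SE 0.254, edgeR adjusted p = 0.0180). Cox5a, which also fell in these cells, had 35.3, 16.4 and 48.9 CPM in BIBO3304 samples against 65.7, 96.3 and 78.0 CPM in vehicle samples, a log2 fold change of −1.22 (edgeR adjusted p = 0.0439). Cox7a2, the broadly expressed form of subunit VIIa, had 26.0, 15.2 and 27 CPM in BIBO3304 samples against 53.5, 37.8 and 45.3 CPM in vehicle samples, at −1.07 (edgeR adjusted p = 0.0310). All 3 genes encode complex IV subunits, and in each of them BIBO3304 2 had the lowest value.

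Ndufa4, the other complex IV member called in alveolar type 2 cells, averaged 35.5 ± 14.6 CPM in BIBO3304 samples and 75.8 ± 2.02 CPM in vehicle samples (SD, n = 3 each). Of complex I, the accessory subunits Ndufa3 and Ndufb7 fell, with log2 fold changes of −1.28 and −1.34. Ndufb7 had 20.5, 10.5 and 29.0 CPM in BIBO3304 samples against 35.6, 65.4 and 56.2 CPM in vehicle samples. Of complex V, Atp5d, the delta subunit of the rotor, and Atp5k, the membrane subunit e, changed, at log2 fold changes of −1.15 and −1.47. Atp5k had 21.1, 8.98 and 28.0 CPM in BIBO3304 samples against 53.5, 68.8 and 43.6 CPM in vehicle samples, with no overlap. Uqcr11, a small complex III subunit, fell by 1.09, but its groups overlapped: 24.8, 20.7 and 42.8 CPM in BIBO3304 samples against 72.2, 41.3 and 62.9 CPM in vehicle samples. The edgeR adjusted p of these 6 genes lay between 0.0322 and 0.0464. Each of the 9 calls was lost when any 1 of BIBO3304 1, BIBO3304 2, vehicle 1, vehicle 2 or vehicle 3 was left out, and held only without BIBO3304 3. Their highest adjusted p with 1 sample left out ran from 0.146 for Cox6c to 0.328 for Uqcr11. Among cells of 1000 to 3000 transcripts, which left no value for BIBO3304 2 in this type, the log2 fold changes were nearer 0, at −0.20 for Ndufb7, −0.38 for Atp5k and Ndufa4, −0.42 for Cox5a, −0.64 for Cox6c, −0.80 for Cox7a2 and Atp5d, −0.94 for Uqcr11 and −1.01 for Ndufa3, and none passed (edgeR adjusted p 0.711 to 0.979).

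**Figure D4:**
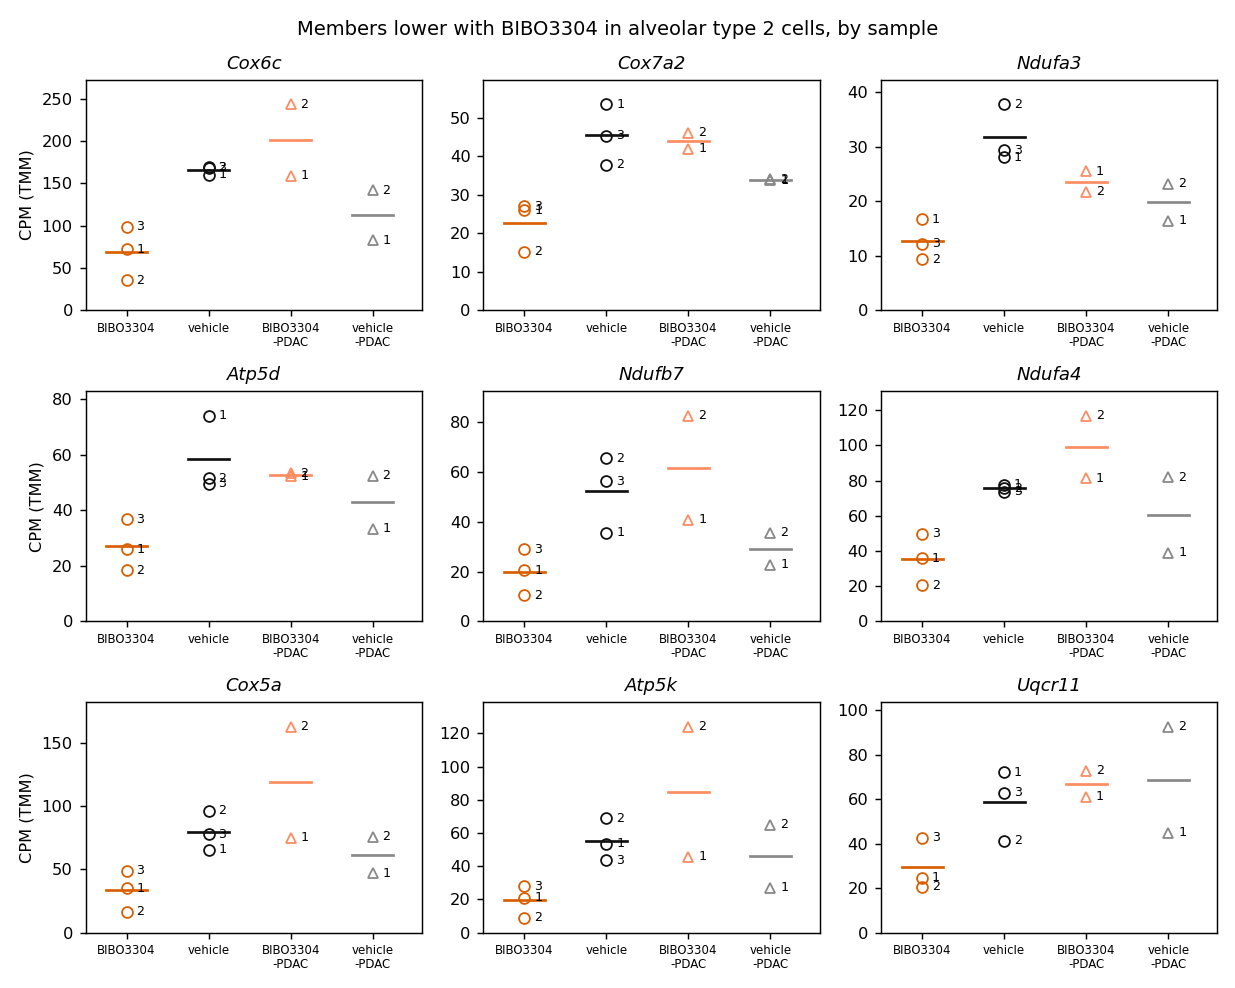
CPM scaled by TMM (vertical axes, from 0) of the 9 members lower with BIBO3304 in alveolar type 2 cells, by group (horizontal axes); each point is a sample with its number and bars are means. BIBO3304 sample 2 is the lowest of its group in each panel, and for Cox6c BIBO3304-PDAC sample 2 lies at 243 CPM, above all others.

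In alveolar fibroblasts, which support the alveolar wall, 3 members were called lower, beside 0.681% of all genes in the lower direction. Atp5mpl, a small membrane subunit of the ATP synthase, had 9.18, 4.28 and 9.81 CPM in BIBO3304 samples against 18.8, 25.8 and 16.8 CPM in vehicle samples (log2 fold change −1.36, SE 0.282, edgeR adjusted p = 0.0281). Uqcrh, the hinge subunit of complex III, had 38.6, 30.4 and 34.8 CPM in BIBO3304 samples against 53.4, 53.0 and 53.1 CPM in vehicle samples (−0.62, edgeR adjusted p = 0.0392). Ndufb1, an accessory subunit of complex I, fell by 0.92 with the same adjusted p. Groups did not overlap for these 3 genes. Each call was lost without BIBO3304 2 and without any 1 of the vehicle samples, and among cells of 1000 to 3000 transcripts the log2 fold changes were −1.04 for Atp5mpl, −0.32 for Uqcrh and −0.44 for Ndufb1.

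B cells supplied the remaining call and the largest change, beside 0.227% of all tests over all types in the lower direction. The share of all genes within B cells is not given here for this comparison. Cox5a had 18.5, 16.7 and 24.3 CPM in BIBO3304 samples against 111, 95.6 and 69.1 CPM in vehicle samples, which is −2.23 on the log2 scale (SE 0.424, edgeR adjusted p = 0.0325). These values rest on 7, 8 and 8 counts in BIBO3304 samples and 29, 60 and 15 counts in vehicle samples. BIBO3304 2 was not set apart here. The call was nonetheless lost without it, as it was without BIBO3304 1, vehicle 1 or vehicle 2, and among cells of 1000 to 3000 transcripts the log2 fold change was −2.17 with an adjusted p of 0.342.

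Medians were also taken by complex. In BIBO3304 against vehicle the median over types was −0.77 for complex V, −0.74 for complex IV, −0.56 for complex I and −0.54 for complex III, but 0.024 for complex II. Of the complex IV tests 158 of 160 were below 0, and of the complex V tests 179 of 201. Complex II had 17 of 36 tests below 0. Calls numbered 3 in complex I, 0 in complex II, 2 in complex III, 5 in complex IV and 3 in complex V. Without BIBO3304 2 the medians were −0.53 for complex V, −0.53 for IV, −0.34 for I, −0.33 for III and −0.098 for II. In cells of 1000 to 3000 transcripts they were −0.48, −0.64, −0.18, −0.37 and 0.44 in the same order. Complex I was below 0 there in 7 of 11 types. The difference between complexes was not tested.

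Of 40 members tested in at least 10 types, 20 were below 0 in every type in which they were tested and 36 had a median below 0. Lowest were Atp5k (median over types −1.14), Atp5mpl (−1.12), Cox5a (−1.10) and Atp5d (−1.02). The other end was held by Sdha, the flavoprotein of complex II, at 0.13, Ndufs4 at 0.061, Ndufv2, an iron-sulfur subunit of complex I, at 0.055, and Atp5c1, the gamma subunit of the ATP synthase, at 0.010. This order ran with the length of the gene on the genome, by a split chosen after the values were seen. Of the 38 of these members with a span in the GENCODE vM21 annotation of GRCm38, the 8 longest (18.0 to 100 kb) had medians of −0.30 to 0.13, and the other 30 genes (1.21 to 15.4 kb) had medians of −1.14 to −0.17. The span of Atp5k was 1.21 kb, that of Sdha 28.0 kb and that of Ndufs4 100 kb.

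Over all members with a span (84 of 89) the median was 7.15 kb, against 26.0 kb over all genes, and by complex it was 3.34 kb for IV, 4.91 kb for III, 7.15 kb for V, 7.80 kb for I and 20.7 kb for II. All genes tested showed a gradient of the same direction. The shortest 20% of all genes tested had a median log2 fold change of −0.26 in BIBO3304 against vehicle, or −0.23 with members and ribosomal protein genes left out, and was below 0 in 19 of 19 types. The longest 20% had 0.11. The part of gene length in the members' difference was not tested.

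Related lists showed how far the difference extended. Cytosolic ribosomal protein genes, which serve translation and are short and abundant, were below 0 in 1106 of 1199 tests with BIBO3304. Their median over types was −0.76, and 33 tests were called lower, beside 0.227% of all tests. The mitochondrially encoded genes, which are partner subunits of complexes I, III, IV and V, were below 0 in 126 of 128 tests (−0.63). The 9 tests called lower were mt-Nd1, mt-Nd2, mt-Nd4 and mt-Cytb in alveolar type 2 cells and alveolar fibroblasts and mt-Nd2 in adventitial fibroblasts. Assembly factors were below 0 in 151 of 249 tests (−0.23), with 1 called lower. That call was Cox17, a copper chaperone of complex IV, in alveolar type 2 cells. It had 30.8 ± 14 CPM in BIBO3304 samples and 77.7 ± 20.7 CPM in vehicle samples (log2 fold change −1.29, edgeR adjusted p = 0.0376). Genes of the citric acid cycle had 0 calls in 185 tests and a median of 0.048, those of glycolysis 0 calls in 171 tests and −0.11, and hypoxia targets 0 calls in 107 tests and 0.10. Regulators of mitochondrial biogenesis had 1 call in 150 tests, Ppard in alveolar type 2 cells, which rose by 1.10 (edgeR adjusted p = 0.0464). Ppard did not pass with DESeq2 (adjusted p = 0.118). The Cox17 and Ppard calls were each lost when any 1 of BIBO3304 1, BIBO3304 2, vehicle 1, vehicle 2 or vehicle 3 was left out.

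Promoters of the called members are shown to compare their sequence with the motifs long known from respiratory genes. Windows of 250 bases before to 50 after the start were available for 69 members in the RefSeq table of GRCm38.p6. The motifs, searched on both strands, were GCGCA followed by any base and GCGC for NRF1, CCGGAAG for ETS factors and AAGATGGCG for YY1, and the last 2 can share the letters AAG. Capitals mark the matches, and the sequences run 5′ to 3′ on the strand of the gene. Atp5k (chr5:108434350-108434649, minus strand), which fell in alveolar type 2 cells, holds an NRF1 motif and the reverse complement of the ETS motif. Ndufb7 (chr8:83566508-83566807, plus strand) holds the ETS motif near its start. Cox5a (chr9:57520982-57521281, plus strand), the member called in 2 types, holds none of the 3.
Atp5k: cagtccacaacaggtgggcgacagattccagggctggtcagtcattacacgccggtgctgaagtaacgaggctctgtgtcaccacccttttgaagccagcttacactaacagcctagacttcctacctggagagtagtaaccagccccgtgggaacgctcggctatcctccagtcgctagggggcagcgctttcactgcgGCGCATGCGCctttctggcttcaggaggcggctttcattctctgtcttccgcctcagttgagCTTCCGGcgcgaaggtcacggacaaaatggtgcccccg
Ndufb7: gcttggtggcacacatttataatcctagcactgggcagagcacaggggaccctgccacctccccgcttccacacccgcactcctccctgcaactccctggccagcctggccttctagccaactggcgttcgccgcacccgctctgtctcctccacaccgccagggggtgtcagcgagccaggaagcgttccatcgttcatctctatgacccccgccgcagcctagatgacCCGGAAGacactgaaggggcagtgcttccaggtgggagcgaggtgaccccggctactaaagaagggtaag
Cox5a: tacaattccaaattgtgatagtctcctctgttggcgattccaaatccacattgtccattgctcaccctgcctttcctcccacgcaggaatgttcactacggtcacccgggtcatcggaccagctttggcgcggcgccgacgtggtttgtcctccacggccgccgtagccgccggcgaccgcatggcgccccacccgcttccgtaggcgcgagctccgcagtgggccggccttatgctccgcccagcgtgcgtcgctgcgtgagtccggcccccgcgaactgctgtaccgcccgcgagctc

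The NRF1 motif occurred in 17 of the 69 member promoters (24.6%), against 5.19% of all 27025 windows of the same length. The ETS motif also occurred in 17 (24.6%, against 9.93%) and the YY1 motif in 7 (10.1%, against 1.64%). At least 1 of the 3 was found in 35 of 69 members (50.7%) and in 15.1% of all windows. Among members called in any comparison, Atp5k, Atp5g3, Atp5o and Ndufa5 held the NRF1 motif, Atp5k, Ndufb7, Uqcr11 and Uqcrh the ETS motif, and none the YY1 motif. Genes called and not called both held the motifs, and a match describes the letters in the window only.

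Depth per cell and the level of transcripts from other cells moved with the difference. In alveolar type 2 cells the median cell held 3806, 8970 and 6003 transcripts in BIBO3304 samples, against 1799, 1831 and 2097 in vehicle samples. The summed level of 9 alveolar macrophage markers in those cells was 135, 69.4 and 117 CPM in BIBO3304 samples and 210, 174 and 300 CPM in vehicle samples, with at most 1 of the 9 at 0 in any of them. In alveolar fibroblasts the median depth was 3382, 6759 and 4804 transcripts in BIBO3304 samples against 1892, 1519 and 1918 in vehicle samples, and the marker sum 224, 62.7 and 140 CPM against 305, 315 and 369 CPM. Their part in the result was not tested beyond one alternative. With only cells of 1000 to 3000 transcripts summed, the members' median was −0.38, below 0 in 14 of 15 types, with 0 calls. In those cells the members' share per sample was 0.254%, 0.165% and 0.178% in BIBO3304 and 0.352%, 0.251% and 0.299% in vehicle, so that 1 BIBO3304 sample lay among the vehicle samples. In alveolar type 2 cells of that depth the share was 0.390% and 0.281% in BIBO3304 samples 1 and 3, against 0.489%, 0.252% and 0.409% in vehicle samples, and both BIBO3304 values lay within the vehicle range.

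**Figure D5:**
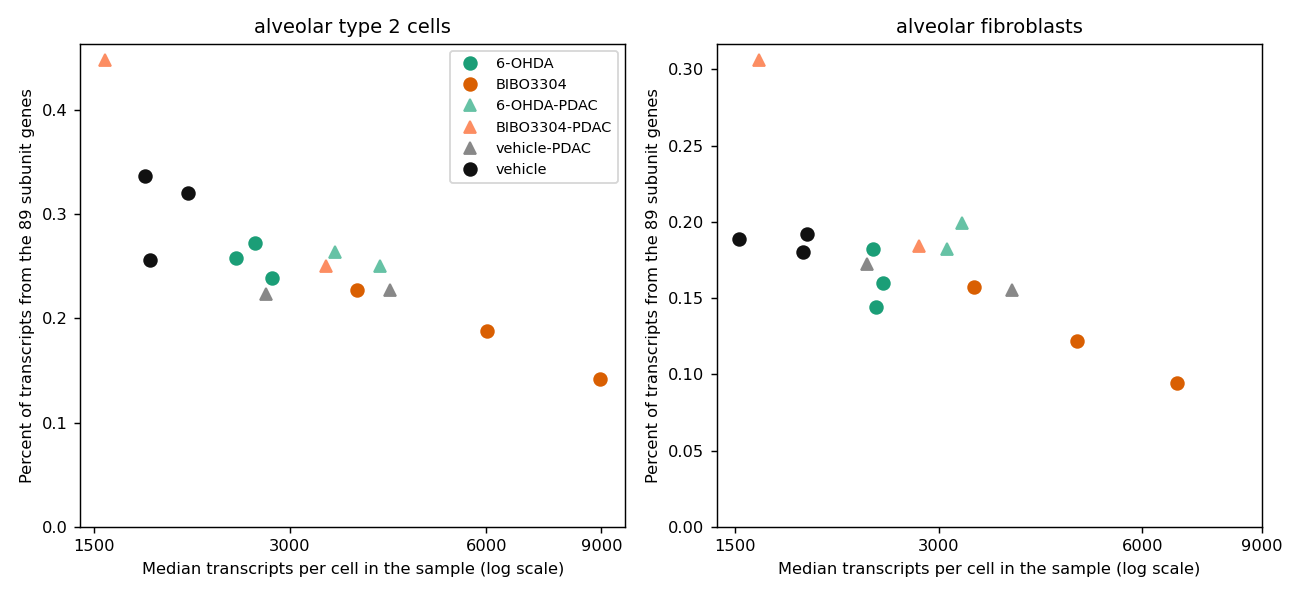
Percent of transcripts from the 89 subunit genes (vertical axis) against the median transcripts per cell of the same sample (horizontal axis, log scale) in alveolar type 2 cells (left) and alveolar fibroblasts (right), 1 point per sample. In alveolar type 2 cells BIBO3304 2 lies at 8970 transcripts and 0.142%, and BIBO3304-PDAC 2 at 1562.5 transcripts and 0.448%.

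6-OHDA without cancer cells gave 0 member calls with edgeR and 0 with DESeq2, beside 0.0669% of all tests with edgeR. An unadjusted p under 0.05 was reached by 56 of 773 member tests (7.24%), against 7.72% of all tests. The members' median was below 0 in 19 of 19 types, all drawn from the same samples, with a median over types of −0.29. It was lowest in lymphatic endothelium (−0.69), aerocyte capillaries (−0.66) and peribronchial fibroblasts (−0.57). It was nearest 0 in large-vessel endothelium (−0.10), monocytes (−0.11) and general capillaries (−0.14). Over all cells, members made up 0.176%, 0.204% and 0.216% of transcripts in 6-OHDA samples against 0.244%, 0.232% and 0.247% in vehicle samples. Every 6-OHDA sample was below every vehicle sample in 5 of 19 types. By complex the median over types was −0.42 for IV, −0.26 for V, −0.24 for I, −0.23 for III and −0.084 for II. Other lists moved the same way: cytosolic ribosomal protein genes had a median over types of −0.37 (below 0 in 19 of 19 types), mitochondrially encoded genes −0.49 (19 of 19) and the alveolar macrophage markers −0.80 (17 of 19), each with 0 calls. Mir6236, a locus whose reads are linked to ribosomal RNA, was below 0 in 19 of 19 types, with a median of −1.55, and was called in 6. Their part in the members' difference was not tested.

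The member with the smallest p under 6-OHDA was Cox5a in B cells. It had 23.3, 18.1 and 30.7 CPM in 6-OHDA samples against 111, 95.6 and 69.1 CPM in vehicle samples, a log2 fold change of −1.96 that did not pass (edgeR adjusted p = 0.441). The vehicle samples here are those of the BIBO3304 comparison. Next came Cox7c in B cells at −1.38 (adjusted p = 0.475), Atp5j in alveolar macrophages at 0.68 (0.290), Atp5a1 in B cells at −0.92 (0.479) and Ndufa3 in alveolar type 2 cells at −1.07 (0.733), none of which passed edgeR's test. Cox17, an assembly factor outside the rule, fell in dendritic cells, to 30.5 ± 12.6 CPM in 6-OHDA samples against 87.8 ± 11 CPM in vehicle samples (log2 fold change −1.53, edgeR adjusted p = 0.0381). That call was lost when any 1 of 6-OHDA 1, 6-OHDA 2, vehicle 1, vehicle 2 or vehicle 3 was left out.

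In samples with seeded cancer cells, BIBO3304-PDAC against vehicle-PDAC gave 0 member calls with edgeR and 0 with DESeq2, beside 0.0317% of all tests, and 87 of 773 member tests (11.3%) had an unadjusted p under 0.05, against 7.76% of all tests. The members' median was above 0 in 18 of 19 types, with a median over types of 0.48, from −0.28 in peribronchial fibroblasts to 1.11 in lymphatic endothelium and 1.08 in neutrophils. That size rested on single libraries, since the median was 0.11 without BIBO3304-PDAC 2, 0.14 without vehicle-PDAC 1 and 0.85 without vehicle-PDAC 2. Over all cells the share was 0.229% and 0.354% in BIBO3304-PDAC and 0.188% and 0.251% in vehicle-PDAC, so the groups overlapped. By type, every BIBO3304-PDAC sample was above every vehicle-PDAC sample in 11 of 19 types. Atp5o, a stalk subunit of the ATP synthase, had the smallest p, with 28.4 and 52.9 CPM in BIBO3304-PDAC monocytes against 8.55 and 12.5 CPM in vehicle-PDAC monocytes (log2 fold change 2.03, edgeR adjusted p = 0.230). Atp5o also had 31.5 and 41.1 CPM in BIBO3304-PDAC interstitial macrophages against 8.86 and 17.5 CPM in vehicle-PDAC (1.52, edgeR adjusted p = 0.132). The other 3 of the 5 smallest p all belonged to Cox7b, a small membrane subunit of complex IV, at 1.70 in monocytes, 1.05 in alveolar type 2 cells and 1.08 in interstitial macrophages, with adjusted p of 0.173 to 0.459.

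6-OHDA-PDAC against vehicle-PDAC gave 0 member calls with edgeR and 0 with DESeq2 in 746 tests over 17 types, beside 0.405% of all tests with edgeR. An unadjusted p under 0.05 was reached by 25 member tests (3.35%), against 7.47% of all tests. The median over types was 0.018, and it was −0.39 without vehicle-PDAC 1 and 0.35 without vehicle-PDAC 2. By type it was lowest in ciliated cells (−0.35), peribronchial fibroblasts (−0.32) and alveolar macrophages (−0.18) and highest in smooth muscle and pericytes (0.33), interstitial macrophages (0.25) and monocytes (0.13). Shares over all cells were 0.228% and 0.245% in 6-OHDA-PDAC and 0.188% and 0.251% in vehicle-PDAC, and every 6-OHDA-PDAC sample was above every vehicle-PDAC sample in 8 of 17 types. The smallest p belonged to Ndufa6, a complex I subunit that binds acyl carrier protein, in ciliated cells, with 6.60 and 22.8 CPM in 6-OHDA-PDAC against 39.8 and 105 CPM in vehicle-PDAC (−2.76, edgeR adjusted p = 0.829). Atp5c1 in interstitial macrophages had 39.8 and 44.3 CPM in 6-OHDA-PDAC against 22.6 and 14.6 CPM in vehicle-PDAC (1.13, edgeR adjusted p = 0.144). In the same macrophages Mdh2, the citric acid cycle's malate dehydrogenase, was higher by 1.52 with 2 samples per group (edgeR adjusted p = 0.0295). It did not pass with DESeq2 (adjusted p = 0.0625). Pfkp, of the glycolysis list, was lower in dendritic cells, also with 2 samples per group (log2 fold change −1.22, edgeR adjusted p = 0.0198). It passed with DESeq2 (adjusted p = 0.00178).

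For the seeding of cancer cells alone no member passed. Vehicle-PDAC against vehicle gave 0 calls with edgeR and 0 with DESeq2, beside 0.00176% of all tests with edgeR, and 12 of 773 member tests (1.55%) had an unadjusted p under 0.05, against 4.91% of all tests. The median over types was 0.0098, or −0.42 without vehicle-PDAC 2, the sample with no cancer cell. By another measure, the members' share of transcripts without scaling between samples, every vehicle-PDAC sample was below every vehicle sample in 8 of 19 types. By type the median log2 fold change was lowest in natural killer cells (−0.29), T cells (−0.24) and B cells (−0.21). It was highest in peribronchial fibroblasts (0.34), mesothelium (0.28) and ciliated cells (0.15). Ndufb5, a complex I subunit, had the smallest p, with 16.4 and 20.1 CPM in vehicle-PDAC alveolar type 2 cells against 36.6, 37.8 and 32.7 CPM in vehicle (−0.99, edgeR adjusted p = 0.765). Cox7a2l in interstitial macrophages was next, with 33.5 and 70.2 CPM in vehicle-PDAC against 124, 106 and 69.1 CPM in vehicle (−0.99, edgeR adjusted p = 0.576).

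Whether BIBO3304 acted differently with and without cancer cells was tested as an interaction, the log2 fold change of BIBO3304-PDAC over vehicle-PDAC minus that of BIBO3304 over vehicle. It was above 0 past the threshold in 17 member tests and below 0 in 0, while 0.413% of all tests passed in either direction and 0.255% in the higher one. An unadjusted p under 0.05 was reached by 302 member tests (39.1%), against 13% of all tests, and DESeq2 called 31. The median over types was 1.11, from 0.68 in peribronchial fibroblasts to 2.31 in lymphatic endothelium. By complex it was 1.41 for IV, with 158 of 160 tests above 0, 1.28 for V, 1.05 for III, 0.79 for I and 0.063 for II. Without BIBO3304 2 and BIBO3304-PDAC 2 these medians were 0.85, 0.67, 0.51, 0.40 and 0.26 in the same order. In cells of 1000 to 3000 transcripts they were 1.01, 0.66, 0.63, 0.21 and 0.20. The 17 calls with all samples and cells lay in alveolar type 2 cells (8), B cells (5), interstitial macrophages (2) and monocytes (2). In alveolar type 2 cells 0.867% of all genes passed in the higher direction and in B cells 1.85%. That share is not given here for interstitial macrophages and monocytes, so their calls have no reference within the type.

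Cox6c in alveolar type 2 cells had an interaction of 2.15 (SE 0.407, edgeR adjusted p = 0.0214). Its values were 159 and 243 CPM in BIBO3304-PDAC against 82.7 and 142 CPM in vehicle-PDAC, beside the lower values with BIBO3304 than with vehicle given above. Cox7b passed in 3 types, at 1.79 in alveolar type 2 cells, 2.04 in interstitial macrophages and 3.20 in monocytes. In interstitial macrophages Cox7b had 81.2 and 113 CPM in BIBO3304-PDAC, 34.5 and 60.0 CPM in vehicle-PDAC, 31.7, 26.4 and 28.0 CPM in BIBO3304 and 56.3, 78.7 and 34.6 CPM in vehicle. Those values did not overlap between drug and vehicle in either setting. Cox5a and Atp5k each passed in alveolar type 2 cells and in B cells, with 3.21 and 3.12 in B cells.

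In B cells Atp5k had 64.0 and 133 CPM in BIBO3304-PDAC, 24.8 and 60.1 CPM in vehicle-PDAC, 5.29, 8.33 and 21.3 CPM in BIBO3304 and 30.6, 52.6 and 41.4 CPM in vehicle. Ndufa5, a subunit of complex I's peripheral arm, had the largest interaction, 4.18 in interstitial macrophages (SE 1.02, edgeR adjusted p = 0.0482), from levels of 18.2 and 26.7 CPM in BIBO3304-PDAC, 6.89 and 8.77 CPM in vehicle-PDAC, 2.65, 2.64 and 2.34 CPM in BIBO3304, and 23.5, 18.2 and 7.98 CPM in vehicle. These levels rest on 11 and 28 counts in BIBO3304-PDAC, 7 and 6 in vehicle-PDAC, 1 in each BIBO3304 sample and 10, 6 and 3 in vehicle. Uqcrq, a small complex III subunit, passed in monocytes at 2.81. The remaining calls were Ndufb7, Ndufa4, Ndufb5 and Atp5o in alveolar type 2 cells and Atp5mpl, Atp5g3 and Cox7c in B cells.

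The count of interactions changed with the libraries included. Without BIBO3304-PDAC 2 there were 0 calls and the median over types was 0.71, and without BIBO3304 2 there were 2 calls. With both left out, an alternative chosen after seeing the data, 0 members passed and the median was 0.57, above 0 in 19 of 19 types. Among cells of 1000 to 3000 transcripts 0 members passed and the median was 0.64, above 0 in 13 of 13 types. Leaving out vehicle-PDAC 2 instead gave 143 calls, and leaving out vehicle-PDAC 1 or vehicle 2 gave 0. Cytosolic ribosomal protein genes passed in 55 of 1199 tests with a median of 1.37, mitochondrially encoded genes in 1 of 128 with 0.76, and the shortest 20% and longest 20% of all genes had medians of 0.45 and −0.23. Alveolar macrophage markers had a median of 0.97, above 0 in 17 of 19 types, with 0 calls. In alveolar type 2 cells their median was 1.94, beside 1.19 for the members, and their part in the result was not tested.

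The interaction for 6-OHDA gave 0 member calls with edgeR and 0 with DESeq2 in 746 tests, beside 0.00744% of all tests, and 25 (3.35%) had an unadjusted p under 0.05, against 5.12% of all tests. Its median over types was 0.26, or −0.075 without vehicle-PDAC 1 and 0.60 without vehicle-PDAC 2. The smallest p was that of Atp5o in adventitial fibroblasts, with 28.3 and 18.8 CPM in 6-OHDA-PDAC, 16.7 and 15 CPM in vehicle-PDAC, 8.80, 9.41 and 6.22 CPM in 6-OHDA, and 18.7, 22.3 and 19.7 CPM in vehicle (1.86, edgeR adjusted p = 0.855).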

How the data were processed

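The authors' deposited matrix gives unnormalized counts of transcripts for each gene in each cell, whose sum equals the deposited total for 99.0% of cells. The deposited cell table gives each cell's sample, treatment, seeding state and cell type (other values in that table are labels) and the percent of mitochondrially encoded transcripts. The 16 entries of the series are sublibraries that each hold cells of all samples, so groups came from the cell table, where the seeding state is written as IV. That mark was taken to mean seeding, because 308 of 312 annotated cancer cells lie in those samples. Libraries were prepared with Parse Evercode WT v3, per the labels' protocols, and the submitters' processing notes name Seurat 5.3.0 and mm39. No aligner or cell filter is given in the sources used here, and gene spans and promoters come from GRCm38, an older build.

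Sums over the cells of a type in each sample (at least 20 cells, 2 samples per group) were filtered with filterByExpr, scaled by TMM and fitted over all 6 groups with edgeR 4.0.16 (R 4.3.3), with Benjamini-Hochberg adjustment within type and comparison and an adjusted p of 0.05 as the limit, for 5 comparisons and 2 interactions. The procedure was tested on simulated data. No doublet caller was run, and an alternative leaves out the 5% of cells with most transcripts. Other alternatives were DESeq2 1.42.0, RLE size factors, no gene filter, 50 cells, compared groups only, a term for the sample number, no mitochondrial or ribosomal genes, and each sample left out. Levels are plain CPM, and comparison values are CPM scaled by TMM. Sums and figures used Python 3.11.15 with scipy 1.17.1, pandas 2.3.3 and matplotlib 3.10.9.

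The members and gene lists were chosen with earlier results of these data known. Named genes are the paralogue groups, the 10 members with the largest ratio between type means (over types with at least 5 samples, which leaves out alveolar type 1 and club cells), every member past the threshold, and the 5 with the smallest p where fewer than 8 passed; not all are given with values. Types named per comparison are those with the largest and smallest medians. The values of 1 member are not reported here by name.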

Additional observations from a re-analysis of the deposited data

Results flagged for a closer look

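In 17 tests of a member in a cell type, the effect of BIBO3304 with PDAC cells differed from its effect without them by the test of the difference itself. Some members recur in more than 1 type, and 0.255% of all tests passed in the same, higher direction. In alveolar type 2 cells the differences of log2 fold changes were 2.15 for Cox6c, 2.44 for Ndufb7, 1.79 for Cox7b, 2.18 for Cox5a, 1.91 for Ndufa4, 1.95 for Ndufb5, 2.41 for Atp5k and 2.11 for Atp5o. In B cells they were 3.21 for Cox5a, 3.12 for Atp5k, 3.68 for Atp5mpl, 2.68 for Atp5g3 and 1.83 for Cox7c. In interstitial macrophages they were 2.04 for Cox7b and 4.18 for Ndufa5, and in monocytes 3.20 for Cox7b and 2.81 for Uqcrq. The edgeR adjusted p of the 17 lay between 0.0214 and 0.0487, from 2 BIBO3304-PDAC, 2 vehicle-PDAC, 3 BIBO3304 and 3 vehicle samples. Each was lost without BIBO3304-PDAC 2, without vehicle-PDAC 1 and without vehicle 2, and each was also lost without at least 1 other sample.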

How the results depend on the processing

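The 13 BIBO3304 calls and 17 interaction calls kept their direction under every alternative in which they were tested, but their number did not hold. For BIBO3304 against vehicle it was 32 with DESeq2, 27 with the compared groups only, 80 with no gene filter, 36 without the top 5% of cells, 0 in cells of 1000 to 3000 transcripts and 0 to 28 with 1 sample left out. For the BIBO3304 interaction it was 31 with DESeq2, 1 with the compared groups only, 83 with no gene filter, 32 without the top 5% of cells, 0 in cells of 1000 to 3000 transcripts, 0 without BIBO3304 2 and BIBO3304-PDAC 2, and 0 to 143 with 1 sample left out. DESeq2's calls included 10 of the 13 BIBO3304 calls and 10 of the 17 interaction calls. For the interaction calls in B cells, of Ndufa5 in interstitial macrophages and of Uqcrq in monocytes, DESeq2 gave no adjusted p. It also gave none for the BIBO3304 calls of Atp5mpl and Ndufb1 in alveolar fibroblasts. Uqcr11 in alveolar type 2 cells did not pass for BIBO3304 against vehicle (DESeq2 adjusted p = 0.0730). The depth range and the removal of both libraries were chosen after seeing the data. 6-OHDA gave 1 call with the compared groups only and 5 with no gene filter, and BIBO3304-PDAC gave 2 with no gene filter and 0 to 1 with 1 sample left out. The cause of these shifts was not tested.

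The median over types for the BIBO3304 interaction (1.11) was 0.73 with no gene filter, 0.64 in cells of 1000 to 3000 transcripts, 0.57 without both libraries and 0.71 to 1.45 with 1 sample left out. With 1 sample left out, the other medians ran from −0.41 to −0.24 for 6-OHDA, −0.86 to −0.48 for BIBO3304, −0.39 to 0.35 for 6-OHDA-PDAC, 0.11 to 0.85 for BIBO3304-PDAC, −0.42 to 0.27 for vehicle-PDAC and −0.075 to 0.60 for the 6-OHDA interaction. Where an arm was left with 1 sample, the fit pools the spread of all groups.

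Sample numbers did not pair the samples: deviations of same-numbered samples correlated between −0.36 and 0.20 in the groups of 3, with 2 of 6 over 0.1. With the sample number as a replicate block there were 11 BIBO3304 calls and 12 interaction calls. Few counts per type limited the rare paralogues, and only 6 members could be tested in smooth muscle and pericytes.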
